A study of Rattus norvegicus with 52 samples.

Results

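The response of the kidney to 1 day of dietary salt was examined in Dahl SS/Jr rats (S), an inbred line in which dietary salt raises arterial pressure. The S rats on high salt (n = 5) ate 4% NaCl for 24 hours, and the S rats on low salt (n = 5) stayed on the 0.4% NaCl diet to which all rats had been weaned at 30 days of age. The switch was made at 39 to 41 days, and all rats were male and 40 to 42 days old when they were killed. These 10 animals were selected by strain and diet as given in the labels and are 10 of the 26 rats of the series, with 20 of its 52 arrays. RNA of the left kidney of each rat was read on 2 Affymetrix arrays, 1 of type RAE230A and 1 of type RAE230B, matched by the animal's number. The other 16 rats belonged to the congenic strains ET3x1 and ET3x2, S rats that carry a chromosome segment from the salt-resistant R strain, with 4 rats on the 4% and 4 on the 0.4% NaCl diet in each. They entered the fit of the spread between rats and a closing comparison of salt responses. Of 31142 probe sets that were not controls, 15473 passed the filter on brightness and stood for 8825 genes with a single symbol. Whole kidneys were assayed, so fewer cells of a type and less RNA per cell cannot be told apart in any value below. The labels name no litter or processing batch. By their animal numbers the S rats of either diet form a separate run, apart from rat 5 of each. What the numbers stand for is not given, and a difference that went with these runs could not be told apart from diet.

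The kidney filters plasma and then takes back most of the filtered sodium, first in the proximal tubule, then in the thick ascending limb and the distal convoluted tubule, and finally through the epithelial sodium channel of the collecting duct, which aldosterone controls. A rise in dietary salt lowers aldosterone in most rats, and in S rats the kidney excretes a salt load only at a raised arterial pressure. Kidneys of S rats kept on salt for weeks are known for protein casts, tubular damage and fibrosis.

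Deposited values are log2 levels, and changes are log2 differences, high salt minus low salt, ± the standard error of the limma fit. A probe set was called at a Benjamini-Hochberg adjusted p below 0.05. Fold changes are given on the linear scale. The kidney label was borne out by tubule markers: Umod, the uromodulin gene of the thick ascending limb, had a mean level of 13.36 ± 0.12 on high salt and 13.36 ± 0.15 on low salt (SD, n = 5 each). Of the marker genes of adrenal gland, adipocytes and liver, 1 gene of each list passed the filter on brightness.

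The rats differed in ways that diet did not explain. The first component of the 10 RAE230A arrays held 45.8% of the variance and set low-salt rats 1, 2 and 4 (-21.6, -8.4 and -11.6) apart from the 5 high-salt rats (2.2 to 9.2), but low-salt rats 3 and 5 (5.1 and 3.8) lay among the high-salt rats. Low-salt rat 1 had the narrowest interquartile range on that chip, 2.30. On RAE230A high-salt rats 1 and 2 had a difference of the spike-in controls bioD and bioC of 1.65 and 1.55, against 2.69 to 2.95 in the other 8 S rats. On RAE230B they stood less apart, with 2.164 and 1.865 against 2.19 to 3.036. None of 10 quality measures passed a test between diets (exact permutation tests, two-sided, p from 0.159 to 0.706, where the smallest possible is 0.00794). The part of these differences between rats in the results was not tested, and counts are given below with and without high-salt rats 1 and 2 and low-salt rats 1 and 4.

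Salt changed 430 probe sets in S kidneys, of which 327 were higher and 103 lower on high salt. They were 2.78% of the 15473 tested (2.11% higher and 0.666% lower), stood for 333 named genes, and had a median absolute change of 0.40 (1.32-fold). Only 9 exceeded 2-fold. With quantile normalization the split was 280 higher and 205 lower, so that 57.7% of calls were higher, in place of 76.0%. The high-salt and low-salt values of the 5 rats each did not overlap for 252 of the 430, against 548 of all tested probe sets (3.54%, made up of 2.42% higher and 1.12% lower). An unadjusted p below 0.05 was reached by 2770 probe sets. In a fit of the 10 S rats alone, with 8 residual degrees of freedom in place of 20, limma called 77 probe sets (68 higher and 9 lower), and 73 of them were among the 430.

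The number of calls depended on which rats entered. It fell to 195 without high-salt rat 1, to 156 without high-salt rat 2 and to 268 without high-salt rat 4. It was 174, 235 and 145 without low-salt rats 1, 2 and 4. Leaving out low-salt rat 3 or 5, the rats that lay with the high-salt animals, gave 871 and 1000 calls. Without high-salt rats 1 and 2 together 67 probe sets were called (49 higher and 18 lower), and without low-salt rats 1 and 4 together 58 (37 higher and 21 lower).

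**Figure D1:**
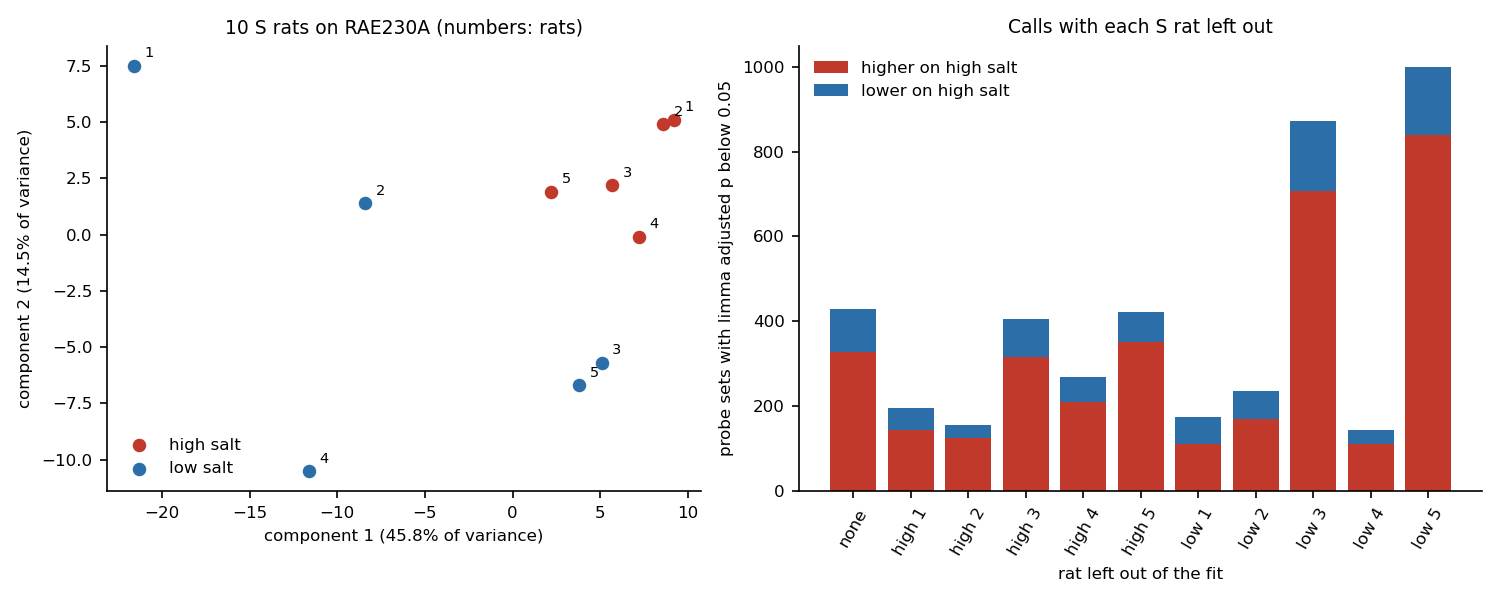
Left, scores of the 10 S rats on components 1 and 2 of the RAE230A arrays (red, high salt; blue, low salt; numbers are rats). Right, stacked bars of probe sets called higher (red) and lower (blue) on high salt with no rat or 1 rat left out; the total runs from 145 without low-salt rat 4 to 1000 without low-salt rat 5, against 430 with all 10 rats.

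Genes of cholesterol synthesis were higher on high salt. In this pathway acetyl units become mevalonate, the isoprenoid chain of farnesyl diphosphate, squalene, lanosterol and at last cholesterol, and SREBP-2, the product of Srebf2, drives the genes of nearly all steps when sterol is scarce. Of 17 tested genes of the list 8 rose and 0 fell, where 2.28% of all genes rose and 0.499% fell by the brightest probe set of each. This list and those below were chosen with earlier results of these data known, so their counts beside all genes are descriptive and no test. The median change of the list was 0.25, and that of all tested genes 0.04. The 8 genes lie along the length of the pathway: Idi1 and Fdps make the isoprenoid units, Fdft1 and Sqle act on squalene, Cyp51, Msmo1 and Ebp work on the sterol rings, and Insig1 encodes the sterol-sensing protein that holds the SREBP precursor in the endoplasmic reticulum.

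Because these 8 genes rose together, their upstream sequence is of interest, and 6 of the 8 have an entry in the RefSeq promoter table (assembly GRCr8). The 250 bases before the annotated start are shown for 3 of them, 1 from the isoprenoid steps, 1 that makes farnesyl diphosphate and 1 from the sterol steps. Capitals mark the pentamer CCAAT on either strand (ATTGG on the reverse), the core of the site of the factor NF-Y. The windows are Idi1 at chr17:66547525-66547774 (minus strand), Fdps at chr2:176804817-176805066 (minus strand) and Msmo1 at chr16:29746863-29747112 (plus strand).
Idi1: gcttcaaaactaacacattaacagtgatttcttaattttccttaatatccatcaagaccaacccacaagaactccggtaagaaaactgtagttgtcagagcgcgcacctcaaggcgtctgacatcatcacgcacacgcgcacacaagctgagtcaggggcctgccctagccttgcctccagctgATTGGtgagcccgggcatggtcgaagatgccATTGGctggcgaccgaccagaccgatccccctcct
Fdps: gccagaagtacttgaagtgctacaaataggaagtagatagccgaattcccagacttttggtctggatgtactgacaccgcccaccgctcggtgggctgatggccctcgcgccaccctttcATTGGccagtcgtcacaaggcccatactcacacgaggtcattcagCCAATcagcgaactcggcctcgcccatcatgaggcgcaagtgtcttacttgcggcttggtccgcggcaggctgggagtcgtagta
Msmo1: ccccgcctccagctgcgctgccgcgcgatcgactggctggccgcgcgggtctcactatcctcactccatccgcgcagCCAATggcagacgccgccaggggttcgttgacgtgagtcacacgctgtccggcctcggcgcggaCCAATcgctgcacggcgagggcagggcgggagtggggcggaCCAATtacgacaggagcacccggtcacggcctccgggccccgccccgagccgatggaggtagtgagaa
The Idi1 and Fdps windows hold 2 such pentamers each and that of Msmo1 holds 3. CCAAT was present in 5 of the 6 called genes with a window (Idi1, Fdps, Msmo1, Ebp and Insig1, not Cyp51), in 6 of the 8 genes of the list that have a window and were not called, and in 34% of all 33469 windows of this length. The letters TCACNCCAC, after the classical sterol regulatory element, were in none of the 6 and in 0.974% of all windows, both strands searched. CACGTG was in 1 of the 6, Insig1, and in 5.59% of all windows. These matches describe letters in the windows and are no evidence of binding.

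Idi1, isopentenyl diphosphate isomerase, is read by 2 probe sets and both rose. The brighter of them had 9.32, 9.44, 9.07, 8.85 and 9.30 in the high-salt rats and 8.14, 8.47, 8.29, 8.07 and 8.68 in the low-salt rats, with no overlap. The change of this probe set was 0.87 ± 0.15 (1.82-fold, limma adjusted p = 0.00146), and that of the other Idi1 probe set 0.74 ± 0.10 (1.67-fold, limma adjusted p = 3.77e-04). Sqle, squalene epoxidase, a rate-limiting enzyme, had 9.06, 9.05, 8.78, 8.73 and 8.98 on high salt and 8.31, 8.45, 8.26, 8.14 and 8.22 on low salt. All high-salt rats lay above all low-salt rats, and the change was 0.64 ± 0.10 (1.56-fold, limma adjusted p = 4.00e-04).

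Insig1 had 10.02, 9.96, 9.33, 9.53 and 9.81 in the high-salt rats, against 8.58, 9.19, 9.05, 8.96 and 9.05 in the low-salt rats. The groups did not overlap, and low-salt rat 1 was the lowest by far (change 0.76 ± 0.13, 1.70-fold, limma adjusted p = 0.00146). Cyp51, lanosterol demethylase, had 8.75, 8.77, 8.20, 8.34 and 8.45 on high salt and 7.14, 7.72, 7.92, 7.76 and 8.02 on low salt (0.79 ± 0.17, 1.73-fold, limma adjusted p = 0.0111). Again high-salt rats 1 and 2 were the highest and low-salt rat 1 the lowest. Msmo1, methylsterol monooxygenase, had 9.96, 9.92, 9.40, 9.42 and 9.66 on high salt and 8.93, 9.10, 9.04, 9.20 and 9.08 on low salt (0.60 ± 0.11, limma adjusted p = 0.00265). Fdps, farnesyl diphosphate synthase, had 10.17, 10.19, 9.68, 9.85 and 9.76 on high salt and 9.17, 9.47, 9.38, 9.20 and 9.61 on low salt (0.56 ± 0.12, limma adjusted p = 0.00865). Fdft1, squalene synthase (0.36 ± 0.09), and Ebp, a sterol isomerase (0.35 ± 0.09), also rose. These 2 completed the called genes of the list and are named after their values were seen.

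Members that were not called spanned -0.06 to 0.25. Srebf2 itself changed by 0.18 ± 0.06 (limma adjusted p = 0.0998), with no overlap between the groups, and Dhcr7, the last enzyme of the pathway, by 0.25 ± 0.09 (limma adjusted p = 0.126). Mvd was at -0.06 ± 0.09 and Lss at 0.06 ± 0.09. Srebf2, Dhcr7, Mvd and Lss were picked for their place in the pathway after their values were seen. Without any 1 rat 6 to 8 of the list were called. Without high-salt rats 1 and 2, which held the highest values of Cyp51, Insig1, Msmo1 and Fdps, 2 were called and the median of the list was 0.20. Without low-salt rats 1 and 4, 4 were called and the median was 0.18.

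**Figure D2:**
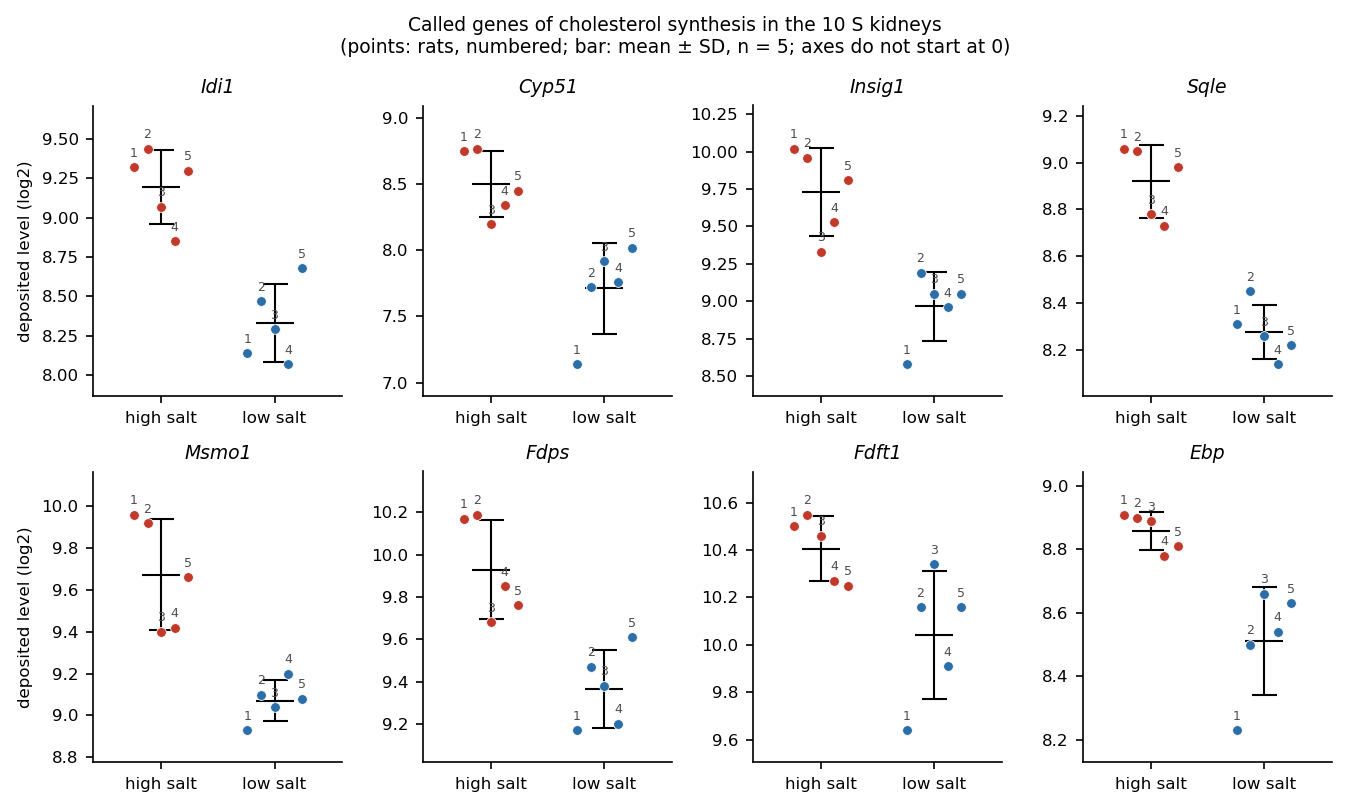
Deposited log2 level in each S rat (points, numbered) for the 8 called genes of cholesterol synthesis, high salt in red at the left and low salt in blue at the right, with mean ± SD (n = 5); each axis covers the values of its gene and does not start at 0. For 7 of the 8 genes all high-salt rats lie above all low-salt rats, and in Fdft1 the groups overlap.

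In fatty acid synthesis, which SREBP-1 governs, 1 of 13 genes rose, against 2.28% of all genes. Scd2, a stearoyl-CoA desaturase, had 10.15, 9.77, 8.73, 8.81 and 8.92 on high salt and 8.05, 8.27, 8.24, 8.32 and 8.62 on low salt. The groups did not overlap, and high-salt rats 1 and 2 stood above the other 3. The change was 0.97 ± 0.25 (1.97-fold, limma adjusted p = 0.0306). Without high-salt rat 1 it was 0.76, without high-salt rats 1 and 2 together 0.52, and the call was lost without either of these rats or any of low-salt rats 1, 2 and 4. The median of the 13 genes was 0.13, and Fasn, fatty acid synthase, differed by 0.17 ± 0.10 (limma adjusted p = 0.370).

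Genes known from injured tubules were also higher on high salt. Of 14 tested genes 5 rose and 0 fell (2.28% and 0.499% of all genes), the median was 0.32, and all 14 changes were positive. Spp1, osteopontin, a secreted phosphoprotein of the tubule, had 12.64, 12.49, 12.68, 12.09 and 12.37 in the high-salt rats and 11.60, 11.70, 11.96, 11.47 and 11.92 in the low-salt rats. All high-salt rats were above all low-salt rats (0.73 ± 0.12, 1.65-fold, limma adjusted p = 0.00119). Anxa2, a membrane-binding annexin, had 10.74, 10.58, 10.74, 10.40 and 10.46 on high salt and 9.72, 10.00, 10.31, 9.81 and 10.22 on low salt (0.57 ± 0.10, limma adjusted p = 0.00146). Timp1, an inhibitor of matrix metalloproteinases, had 8.54, 8.49, 8.50, 8.33 and 8.40 on high salt and 7.97, 7.89, 8.17, 7.74 and 8.12 on low salt (0.47 ± 0.08, limma adjusted p = 0.00189). Neither of these 2 genes had overlapping groups.

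Lcn2, the neutrophil gelatinase-associated lipocalin, a urinary marker of tubular damage, rose by 0.29 ± 0.06 (1.22-fold, limma adjusted p = 0.0123), from a dim probe set with 7.69 to 7.84 on high salt and 7.40 to 7.62 on low salt. Tagln2, an actin-binding protein, rose by 0.28 ± 0.07 (limma adjusted p = 0.0267), with 10.80 to 10.89 on high salt and 10.32 to 10.72 on low salt. Its call was lost without any of high-salt rats 1 and 2 and low-salt rats 1 and 4 (0.22 to 0.32 over the 10 fits with 1 rat left out), while those of Spp1, Anxa2, Timp1 and Lcn2 were kept without any 1 rat. The keratin gene Krt18 (0.41 ± 0.12) and the calcium-binding protein gene S100a6 (0.37 ± 0.11) had groups that did not overlap and did not pass the test (limma adjusted p = 0.0636 and 0.0604). They were chosen after their values were seen. Over the fits with 1 rat left out 4 to 10 of the 14 genes were called, with 10 without low-salt rat 5, and 3 were called without high-salt rats 1 and 2 as well as without low-salt rats 1 and 4.

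Matrix genes made up the third such group, with 7 of 25 higher, 0 lower and a median of 0.23. Among all genes 2.28% were higher and 0.499% lower, with a median of 0.04. Mmp14, the membrane-bound metalloproteinase that activates gelatinase, had 9.13, 9.43, 9.68, 9.69 and 9.66 on high salt and 8.03, 8.44, 9.19, 8.49 and 8.85 on low salt. Only low-salt rat 3 reached into the high-salt range (0.92 ± 0.16, 1.89-fold, limma adjusted p = 0.00146), and a second Mmp14 probe set gave 0.08. Col18a1, a basement membrane collagen from which endostatin is cut, had 9.77, 9.61, 9.54, 9.53 and 9.43 on high salt and 8.79, 9.01, 9.41, 8.82 and 9.15 on low salt (0.54 ± 0.09, limma adjusted p = 0.00146). The basement membrane chains Col4a1 (0.39 ± 0.10) and Col4a2 (0.44 ± 0.10), which are transcribed from a shared promoter, rose as well (limma adjusted p = 0.0262 and 0.0196). The fibrillar collagen chain Col1a1 (0.46 ± 0.13, limma adjusted p = 0.0464) and Mgp, matrix Gla protein, an inhibitor of calcification (0.32 ± 0.08, limma adjusted p = 0.0246), completed the named ones. Col1a2, the partner chain of Col1a1 in type I collagen, was at 0.00 ± 0.11 (limma adjusted p = 0.993) and is named after its value was seen.

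The matrix calls also depended on single rats. Without high-salt rats 1 and 2 there were 3 and without low-salt rats 1 and 4 there was 1, Mmp14 among both (1.08 and 0.69), and the fits with 1 rat left out gave 2 to 8. Col1a1 lost its call without any of 8 rats, namely the 5 high-salt rats and low-salt rats 1, 2 and 4 (0.37 to 0.57). The call of Col4a1 was lost without any of high-salt rats 1, 2 and 4 and low-salt rats 1 and 4 (0.32 to 0.45), that of Col4a2 without any of high-salt rats 1 and 2 and low-salt rat 4 (0.34 to 0.50), and that of Mgp without any of high-salt rats 3 and 4 and low-salt rats 1, 2 and 4 (0.24 to 0.36). With quantile normalization 3 genes of the list were called, with bioD minus bioC as a covariate 3, and in the fit of S rats alone 1. Fibroblast and pericyte markers had a summed level of 12.55 to 12.94 on high salt and 12.15 to 12.69 on low salt, with 1 of 5 genes called, Col1a1 itself. The part of such cells in the matrix values was not tested.

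Actin linkers and genes of the contractile apparatus were counted by the brightest probe set of each. They gave 3 higher (13.6%, against 2.28% of all genes), 0 lower and a median of 0.08 among 22. Tagln, transgelin, and Acta2, smooth muscle actin, mark the walls of arterioles. Tagln had 9.90, 9.73, 9.95, 9.59 and 9.46 on high salt and 8.38, 8.87, 9.60, 8.95 and 9.33 on low salt, overlapping through low-salt rat 3 (0.70 ± 0.15, limma adjusted p = 0.0127). Acta2 had 9.01, 9.14, 8.66, 8.94 and 8.94 on high salt and 8.42, 8.50, 8.45, 8.33 and 8.51 on low salt, with no overlap (0.49 ± 0.09, limma adjusted p = 0.00471). Tpm4, a tropomyosin, rose by 0.33 ± 0.08 (limma adjusted p = 0.0247), a call lost without any of high-salt rats 1 and 3 and low-salt rats 1 and 4 (0.26 to 0.37). Of 4 smooth muscle and juxtaglomerular markers Tagln and Acta2 rose, while Myh11, the smooth muscle myosin, was at -0.01 ± 0.06 and desmin, Des, at 0.04 ± 0.06. The summed level of these 4 was 10.62 to 10.86 on high salt and 10.01 to 10.58 on low salt. Without high-salt rats 1 and 2, and without low-salt rats 1 and 4, 0 of the 22 genes were called by the brightest probe set. Dimmer probe sets of the actin linkers Tns1 (0.92 ± 0.13, higher) and Vcl (-0.81 ± 0.22, lower) were called with all rats and are described below. That of Tns1 was also called in both of these fits (limma adjusted p = 0.000371 and 0.00822).

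Among 12 chemokine, cytokine and interferon genes 2 rose (16.7%, against 2.28% of all genes) and 0 fell. Cxcl10, an interferon-induced chemokine that draws T cells, had 8.35, 8.38, 8.52, 7.94 and 7.91 on high salt and 7.51, 7.51, 7.82, 7.29 and 7.49 on low salt, with no overlap (0.70 ± 0.12, 1.62-fold, limma adjusted p = 0.00219). Nfkbia, the inhibitor of NF-kappaB that this factor itself induces, had 9.27, 9.07, 9.12, 9.25 and 8.85 on high salt and 8.55, 8.65, 8.88, 8.55 and 8.76 on low salt (0.43 ± 0.10, limma adjusted p = 0.0179), and lost its call without any of high-salt rats 1 and 4 and low-salt rats 1 and 4 (0.40 to 0.50). Of 14 leukocyte markers 2 rose (14.3%), Coro1a (0.53 ± 0.12), an actin-binding protein of blood cells, and Tyrobp (0.25 ± 0.07), a signalling adaptor of myeloid cells. The median of the 14 was 0.22, and their summed level was 13.60 to 13.82 on high salt and 13.29 to 13.71 on low salt. Of the 14 changes 10 were positive, and they ran from -0.13 to 0.53. Both calls of the leukocyte list were lost without high-salt rats 1 and 2 and without low-salt rats 1 and 4, and leaving out 1 rat gave 0 to 4. The chemokine list had 0 called without high-salt rats 1 and 2, 1 without low-salt rats 1 and 4, and 1 to 3 with 1 rat left out. The part of leukocytes in the Cxcl10 and Nfkbia values was not tested.

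**Figure D3:**
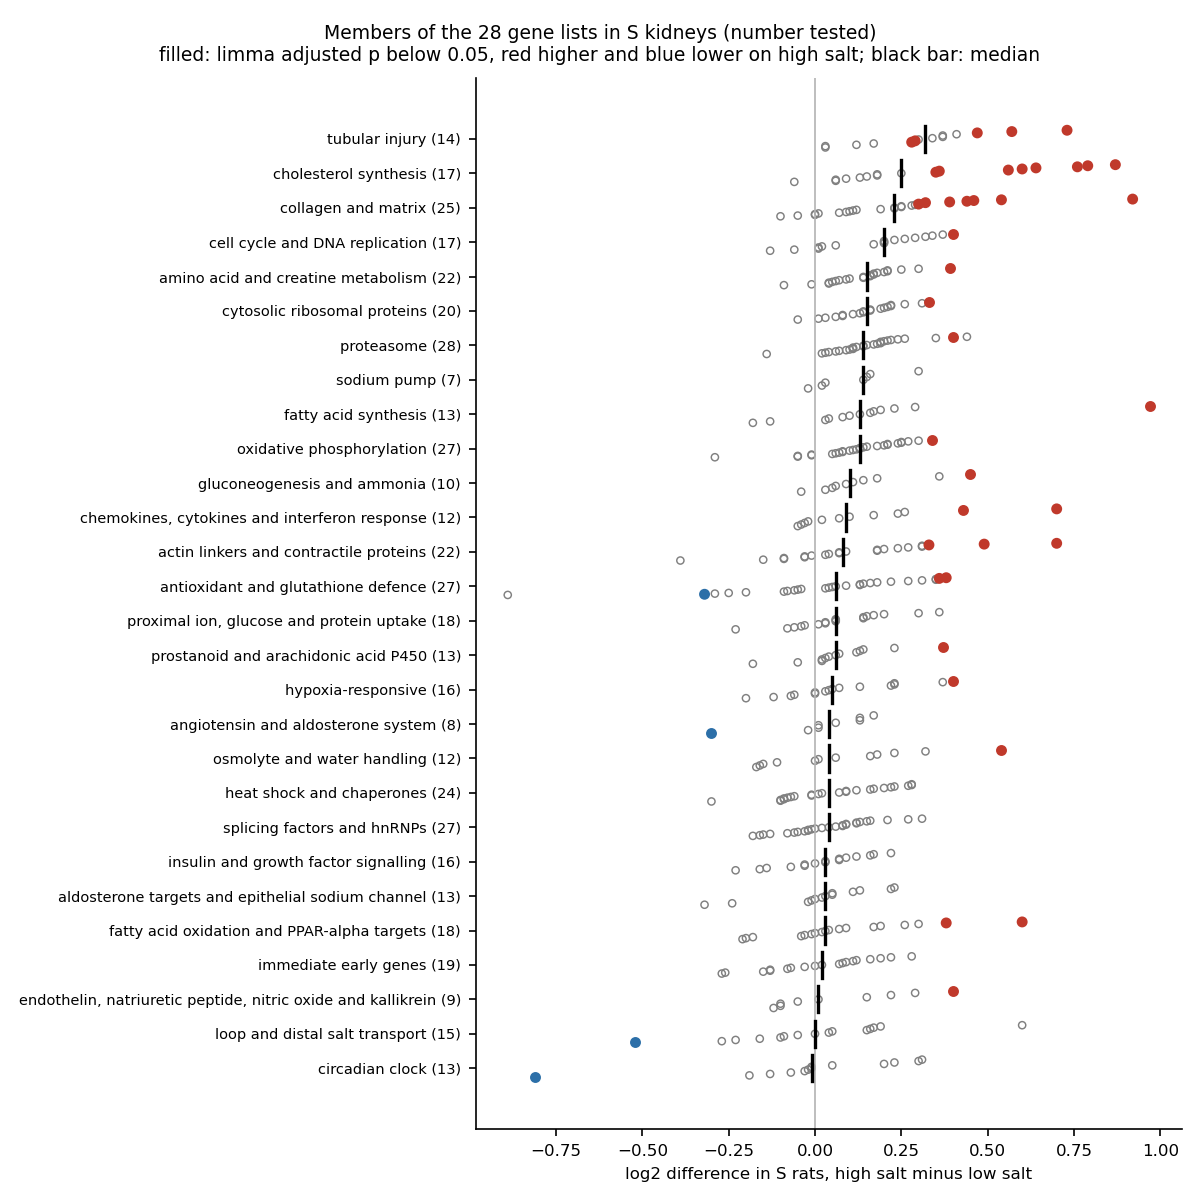
Log2 difference, high salt minus low salt, of each tested member of the 28 gene lists by its brightest probe set, ordered by the list's median (black bar); filled points passed the test (red higher, blue lower) and open points did not. Tubular injury, cholesterol synthesis and matrix have the highest medians (0.32, 0.25 and 0.23).

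Few genes of salt handling itself were called. Of 13 aldosterone targets and subunits of the epithelial sodium channel 0 were called, and their changes ran from -0.32 to 0.23. The subunits Scnn1a, Scnn1b and Scnn1g lay between -0.02 and 0.03, and these are named as the channel's subunits. Sgk1, the aldosterone-induced kinase that keeps the channel in the membrane, had 9.78, 9.60, 10.61, 10.44 and 10.31 on high salt and 10.43, 10.50, 10.47, 10.42 and 10.53 on low salt. High-salt rats 1, 2 and 5 lay below all low-salt rats and high-salt rat 3 above them, and the change was -0.32 ± 0.17 (limma adjusted p = 0.331). Tsc22d3, the glucocorticoid-induced leucine zipper, was at -0.24 ± 0.12 (limma adjusted p = 0.318), and Prss8, the channel-activating protease prostasin, at 0.22 ± 0.10 (limma adjusted p = 0.221).

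Within the angiotensin and aldosterone system 1 of 8 tested genes fell, against 0.499% of all genes. Enpep, aminopeptidase A, which trims angiotensin II, had 10.08, 10.30, 10.24, 10.10 and 10.03 on high salt and 10.36, 10.43, 10.35, 10.47 and 10.65 on low salt. All high-salt rats were below all low-salt rats, and the change was -0.30 ± 0.07 (limma adjusted p = 0.0279). The call was lost without any of high-salt rats 1, 4 and 5 and low-salt rats 2 and 4 (-0.34 to -0.25). Agt, angiotensinogen, was too dim for the filter, and without the filter its change was -0.24 ± 0.11 (limma adjusted p = 0.329).

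Further along the nephron, Casr, the calcium-sensing receptor that restrains salt uptake in the thick ascending limb, fell by 0.52 on the log2 scale. It had 8.66, 8.14, 8.31, 8.11 and 8.11 on high salt and 8.45, 8.94, 8.92, 8.76 and 8.86 on low salt (-0.52 ± 0.11, limma adjusted p = 0.00883). High-salt rat 1 lay inside the low-salt range, and low-salt rat 1 below the other 4 low-salt rats. Casr was the only call among 15 genes of loop and distal transport, a list with a median near 0 that spanned -0.52 to 0.60. Among all genes 0.499% fell. With quantile normalization 3 genes of this list were called lower. There were 2 with bioD minus bioC as a covariate and 2 with the probe sets of each gene averaged. Cldn10, a claudin (-0.23 ± 0.06, limma adjusted p = 0.0518), had groups that did not overlap and is named after its value was seen. Of 18 proximal uptake genes 0 were called, by the brightest probe set of each, and the nearest were the phosphate transporter Slc34a1 (0.20 ± 0.06, limma adjusted p = 0.0668) and the bicarbonate cotransporter Slc4a4 (0.30 ± 0.09, limma adjusted p = 0.0697). The dimmer probe set of Slc34a1 was called higher, at 0.52 (limma adjusted p = 0.0302), and with the probe sets of each gene averaged 2 genes of this list were called higher. Of 7 genes of the sodium pump 0 were called (-0.02 to 0.30, median 0.14). The regulators Fxyd6 (0.30 ± 0.10, limma adjusted p = 0.0892) and Fxyd2 (0.15 ± 0.08, limma adjusted p = 0.280) came nearest.

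In the osmolyte and water list 1 of 12 genes rose, Akr1b1, aldose reductase, which makes sorbitol in the medulla. It had 10.46, 10.43, 10.28, 10.30 and 10.37 on high salt and 9.52, 9.63, 10.16, 9.64 and 10.17 on low salt (0.54 ± 0.13, 1.46-fold, limma adjusted p = 0.0179). The groups did not overlap, low-salt rats 3 and 5 lay close to the high-salt rats, and another Akr1b1 probe set gave -0.13. Arg2, the mitochondrial arginase, which competes with nitric oxide synthases for arginine, rose by 0.40 ± 0.10 (limma adjusted p = 0.0236) as 1 of 9 vasoactive genes. Ephx1, microsomal epoxide hydrolase, rose by 0.37 ± 0.09 (limma adjusted p = 0.0286) as 1 of 13 genes of prostanoid and arachidonic acid metabolism. Among all genes 2.28% rose, and 1 call in a list of this size is no result about the list. All 3 calls were lost without high-salt rat 2, low-salt rat 1 or low-salt rat 2. That of Akr1b1 was also lost without high-salt rat 1 or low-salt rat 4 (0.47 to 0.63), that of Arg2 without high-salt rat 1 (0.30 to 0.49), and that of Ephx1 without high-salt rat 3 or 4 or low-salt rat 4 (0.32 to 0.45).

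Mitochondrial and amino acid metabolism contributed single genes. Glud1, glutamate dehydrogenase, which frees ammonium in the proximal tubule, had 12.06, 12.03, 12.05, 12.01 and 11.97 on high salt and 11.52, 11.54, 11.75, 11.37 and 11.70 on low salt, with no overlap (0.45 ± 0.08, limma adjusted p = 0.00146). Gldc, glycine decarboxylase of the mitochondrial glycine cleavage system, had 9.51, 10.16, 10.05, 10.06 and 10.12 on high salt and 9.16, 9.21, 9.41, 8.82 and 9.40 on low salt (0.78 ± 0.11, 1.72-fold, limma adjusted p = 4.00e-04). High-salt rat 1 stood below the other 4 high-salt rats but still above every low-salt rat. Gamt, the last enzyme of creatine synthesis, rose by 0.39 ± 0.08 (limma adjusted p = 0.0101) as 1 of 22 genes of its list. Ehhadh, a peroxisomal enzyme of fatty acid oxidation (0.60 ± 0.15, limma adjusted p = 0.0258), and Fabp3, a fatty acid carrier (0.38 ± 0.07, limma adjusted p = 0.00542), were 2 of 18. Among all genes 2.28% rose. The call of Ehhadh was lost without any of 6 rats, high-salt rats 1, 2 and 4 and low-salt rats 1, 2 and 4 (0.46 to 0.71). Cyp2e1, a microsomal P450 of liver that kidney also makes, rose by 0.55 ± 0.11 (limma adjusted p = 0.00945), and it was the single tested gene of the liver markers.

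In antioxidant defence 2 of 27 genes rose and 1 fell (11.1% together, where 2.28% of all genes rose and 0.499% fell), and the changes ran from -0.89 to 0.38. The peroxiredoxin gene Prdx5 (0.38 ± 0.10, limma adjusted p = 0.0345) and the glutathione transferase gene Gstm1 (0.36 ± 0.09, limma adjusted p = 0.0335) were higher, and Gsta1, a transferase of another class, was lower (-0.32 ± 0.07, limma adjusted p = 0.0166). The glutathione transferases are near copies of each other, so that probe sets may read several of them. Akr7a3, an aldo-keto reductase that detoxifies aldehydes, had 11.83, 11.79, 11.74, 12.03 and 11.70 on high salt and 12.18, 12.32, 12.67, 12.36 and 12.57 on low salt. It fell by 0.60 on the log2 scale (-0.60 ± 0.10, limma adjusted p = 0.00123) with no overlap. Prdx5 lost its call without any of 7 rats (all but high-salt rat 3 and low-salt rats 3 and 5), Gstm1 without any of 6 (all but high-salt rats 1 and 5 and low-salt rats 3 and 5) and Gsta1 without low-salt rat 1 (-0.35 to -0.28).

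Lists of replication and housekeeping genes had 1 called gene each at most, beside 2.28% higher among all genes. Single genes rose among 16 hypoxia genes (Ldha, lactate dehydrogenase, 0.40 ± 0.09), 17 replication genes (Mcm2, a helicase subunit, 0.40 ± 0.10), 27 genes of oxidative phosphorylation (Sdhb of succinate dehydrogenase, 0.34 ± 0.08), 20 ribosomal protein genes (Rps9, 0.33 ± 0.09) and 28 proteasome genes (Psmb7, 0.40 ± 0.10), with limma adjusted p from 0.0175 to 0.0343. None of these 5 calls was kept without high-salt rat 2, low-salt rat 1 or low-salt rat 4. Low-salt rat 2 also ended those of Ldha, Mcm2 and Psmb7, high-salt rat 3 those of Mcm2, Rps9 and Psmb7, high-salt rat 1 those of Rps9 and Psmb7, and high-salt rat 4 that of Psmb7. Most changes in 4 of these lists were positive: 15 of 17 for replication (median 0.20), 19 of 20 for ribosomal proteins (median 0.15), 27 of 28 for the proteasome (median 0.14) and 22 of 27 for oxidative phosphorylation (median 0.13). Heat shock genes (0 of 24 called), immediate early genes (0 of 19), splicing factors (0 of 27) and insulin and growth factor genes (0 of 16), each by its brightest probe set, had medians of 0.02 to 0.04. The largest statistics among them belonged to Hyou1 (0.27 ± 0.10), Hspa9 (0.22 ± 0.08), Klf10 (-0.27 ± 0.08), Gadd45a (0.28 ± 0.11), Snrnp70 (0.27 ± 0.09), U2af2 (0.12 ± 0.05), Akt1 (0.17 ± 0.06) and Igf1 (-0.14 ± 0.09), with limma adjusted p from 0.0666 to 0.398. Dimmer probe sets of Akt1 (0.49, limma adjusted p = 0.0337) and Igf1r (0.55, limma adjusted p = 0.00177) were called higher. Among 13 clock genes Bhlhe40 alone was called. Marker lists of proximal tubule, thick ascending limb, distal convoluted tubule, principal cells, intercalated cells and podocytes had 0 called, that of endothelium 1 of 7 (Esam, an adhesion molecule, 0.28 ± 0.07), and that of red blood cells 0 of 3 with a median of -0.27.

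Apart from the lists, the largest increase was that of Evi5, a GTPase-activating protein of the TBC family. It had 8.46, 9.18, 9.61, 9.17 and 9.23 on high salt and 7.53, 7.60, 7.87, 8.13 and 8.02 on low salt, without overlap (1.30 ± 0.20, 2.46-fold, limma adjusted p = 6.87e-04). A second Evi5 probe set gave 0.06. Pbrm1, a subunit of a chromatin remodelling complex, had 7.02, 7.73, 6.41, 7.39 and 7.38 on high salt and 5.69, 6.05, 6.68, 6.16 and 6.12 on low salt. High-salt rat 3 was within the low-salt range, the change was 1.04 ± 0.20 (2.06-fold, limma adjusted p = 0.00490), and 3 other Pbrm1 probe sets gave 0.12 to 0.16. Crim1, a membrane protein that binds bone morphogenetic proteins and growth factors, had 9.38, 9.48, 9.39, 9.14 and 9.02 on high salt and 7.74, 7.91, 8.84, 8.30 and 8.61 on low salt (1.00 ± 0.15, 2.00-fold, limma adjusted p = 5.48e-04). Its 2 other probe sets gave 0.02 and -0.19.

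Tns1, tensin, which ties integrins to actin, had 9.10, 9.45, 9.61, 9.75 and 9.67 on high salt and 8.06, 8.37, 8.97, 8.79 and 8.80 on low salt (0.92 ± 0.13, 1.89-fold, limma adjusted p = 4.00e-04). The groups did not overlap, and 3 other Tns1 probe sets gave -0.04 to 0.02. Ccar1, a coactivator of transcription, had 8.31, 8.33, 8.30, 7.84 and 7.57 on high salt and 6.58, 6.86, 7.47, 7.41 and 7.67 on low salt, overlapping through high-salt rat 5 and low-salt rat 5 (0.87 ± 0.18, limma adjusted p = 0.0101). Cmip, an adaptor protein first found in T cells, had 8.50, 9.0, 8.65, 8.83 and 8.67 on high salt and 7.55, 7.85, 8.27, 7.98 and 7.89 on low salt (0.82 ± 0.14, limma adjusted p = 0.00119). Both other Cmip probe sets were positive too, at 0.29 and 0.30.

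Of the rest of the 15 largest increases, Cpd, carboxypeptidase D of the trans-Golgi, rose by 0.79 ± 0.18 (limma adjusted p = 0.0179). Its call was lost without low-salt rat 1 (0.64) or low-salt rat 2 (0.67). The deubiquitinase gene Usp7 rose by 0.76 ± 0.11 (limma adjusted p = 4.00e-04), and its other probe sets gave 0.42 and 0.47. Ndrg1, a gene induced by hypoxia and stress, rose by 0.74 ± 0.15 (limma adjusted p = 0.00945), and the brighter probe set gave 0.23. Low-salt rat 1 had the lowest low-salt value in 13 of these 15 genes, and high-salt rat 2 the highest high-salt value in 8. Without high-salt rats 1 and 2, 8 of the 15 were called (median 0.81), and without low-salt rats 1 and 4, 9 were (median 0.69). Evi5, Crim1, Mmp14, Tns1, Cmip, Gldc, Usp7 and Idi1 were called under every alternative that gave them a value.

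The values of the largest decreases were set apart by low-salt rat 4 in most genes, and their calls also depended on high-salt rats 1 and 2. Kpna1, an importin that carries proteins into the nucleus, had 8.11, 7.83, 8.33, 8.22 and 8.49 on high salt and 8.91, 8.86, 8.84, 10.77 and 8.89 on low salt. The groups did not overlap, but low-salt rat 4 stood far above the other 4 low-salt rats. The change was -1.06 ± 0.25 (2.08-fold lower, limma adjusted p = 0.0190) with all rats and -0.68 without low-salt rat 4, and the call was lost without high-salt rat 1 or 2 (-1.04 and -0.97). Ythdf2, a reader of N6-methyladenosine in messenger RNA, had 9.22, 9.08, 9.39, 9.15 and 9.24 on high salt and 9.96, 9.81, 9.81, 11.34 and 9.81 on low salt (-0.93 ± 0.20, limma adjusted p = 0.0102). Without low-salt rat 4 it was -0.63 and still called. Wtap, a subunit of the enzyme that writes the same mark, had 9.22, 9.15, 9.37, 9.01 and 9.03 on high salt and 9.76, 9.47, 9.46, 10.95 and 9.99 on low salt. Its change was -0.77 ± 0.19 (limma adjusted p = 0.0268) and -0.51 without low-salt rat 4, and the call was lost without any of high-salt rats 1, 2 and 4 and low-salt rat 4.

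Vcl, vinculin, a partner of talin at focal adhesions, had 8.94, 8.70, 9.06, 8.82 and 9.03 on high salt and 9.39, 9.35, 9.52, 10.83 and 9.54 on low salt (-0.81 ± 0.22, limma adjusted p = 0.0464). Bhlhe40, a repressor of the circadian clock, had 8.65, 8.59, 8.92, 8.84 and 8.83 on high salt and 8.81, 9.14, 9.39, 10.86 and 9.70 on low salt (-0.81 ± 0.21, limma adjusted p = 0.0343). Dync1li1, a light intermediate chain of dynein, had 10.07, 10.14, 10.31, 10.22 and 10.43 on high salt and 10.87, 10.69, 10.60, 12.23 and 10.62 on low salt (-0.77 ± 0.20, limma adjusted p = 0.0317). In each of the 3 genes low-salt rat 4 was again the highest, and without it the changes were -0.54, -0.49 and -0.46. Vcl and Bhlhe40 then lost their calls. Vcl did so without any of 7 rats, Bhlhe40 also without high-salt rat 1, 2 or 4, and Dync1li1 without high-salt rat 1, 2 or 4 or low-salt rat 1.

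Psma7, a proteasome subunit, was a steadier case: 7.48, 7.36, 7.79, 7.51 and 7.19 on high salt and 8.23, 8.18, 7.90, 8.62 and 8.14 on low salt (-0.75 ± 0.12, limma adjusted p = 0.00119, and -0.65 without low-salt rat 4). The brighter Psma7 probe set, however, gave 0.22. Paip1, a partner of poly(A)-binding protein, had 7.22, 7.30, 7.53, 7.56 and 7.66 on high salt and 7.89, 7.68, 7.86, 9.33 and 8.09 on low salt (-0.72 ± 0.20, limma adjusted p = 0.0491, -0.43 and not called without low-salt rat 4). It kept its call only without low-salt rat 2, 3 or 5. The other named decreases ran from -0.68 to -0.56 and belonged to Dedd, Ggact, Sppl2a, Prom1, Akr7a3, Ube3a and Zfp697. The call of Dedd, a death effector protein, was lost without high-salt rat 2 or low-salt rat 4 (-0.66 and -0.49), and that of Sppl2a, an intramembrane protease, without low-salt rat 1 or 4 (-0.60 and -0.49). Of these Prom1, prominin, a pentaspan membrane protein, had 9.57, 8.98, 9.95, 9.58 and 9.82 on high salt and 9.97, 10.12, 10.41, 10.16 and 10.24 on low salt (-0.60 ± 0.14, limma adjusted p = 0.0166). It lost its call without high-salt rat 2 (-0.45).

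Low-salt rat 4 had the highest low-salt value in 12 of the 15 largest decreases, and 9 of the 15 were called without it, with a median of -0.51. Without high-salt rat 1 there were 9 (median -0.73), and without high-salt rat 2 there were 7 (median -0.68). Without low-salt rats 1 and 4 there were 5, and without high-salt rats 1 and 2 there were 2. Psma7 and Akr7a3 were called under every alternative run. Among probe sets without a gene symbol, 2 fell further than any named gene (-1.32 ± 0.24 and -1.12 ± 0.16), and the increases of 2 others (1.22 ± 0.24 and 1.18 ± 0.22) came next to that of Evi5.

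**Figure D4:**
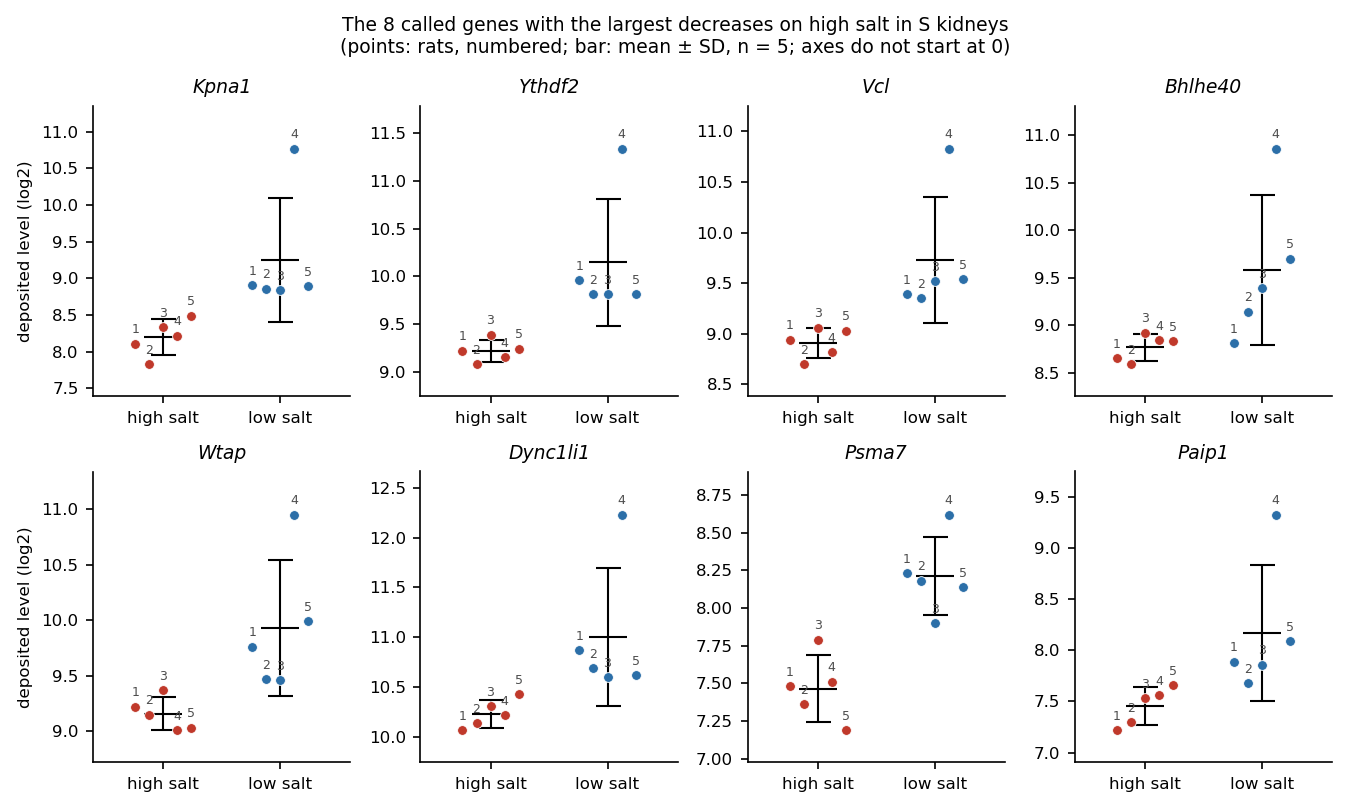
Deposited log2 level in each S rat (points, numbered) for the 8 genes with the largest called decreases, high salt in red at the left and low salt in blue at the right, with mean ± SD (n = 5); axes do not start at 0. In all 8 genes low-salt rat 4 has the highest value, for example 10.77 in Kpna1 against 8.84 to 8.91 in the other low-salt rats.

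Different probe sets of a gene did not always move alike. Of the 333 called genes 145 had further tested probe sets, 205 in all, and 163 of these changed in the direction of the called one. In 9 genes several probe sets were called, in the same direction in all 9. Usp7 and Cmip had other probe sets that were positive, whereas those of Evi5, Crim1, Tns1, Kpna1 and Vcl lay near 0 or on the other side. Among the decreases, the other probe sets of Ythdf2 (-0.12), Wtap (-0.06), Ggact (0.08), Sppl2a (-0.13) and Paip1 (-0.23) did not reach the called change. Those of Ube3a gave 0.18 and -0.07. A value for any of these genes is therefore that of the probe set named, as it is for Mmp14, Pbrm1 and Psma7 above. Which transcripts each probe set reads was not analysed here.

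The congenic strains show how far the response of S rats was shared on the same diets. Between the diets 2457 probe sets were called in ET3x1 rats (15.9%, made up of 6.98% higher and 8.9% lower). In ET3x2 rats 47 were called (0.304%, made up of 0.259% higher and 0.0452% lower). The diet groups of these strains also differed in a measure of RNA quality, given below. Of the 430 called in S, 107 were called in the same direction in ET3x1, where they were 107 of 2457, and 35 in the opposite direction. For ET3x2 the counts were 14 of 47 and 0. Of the 327 higher in S, 223 were positive in ET3x1 and 272 in ET3x2, with median changes of 0.11 and 0.14, against 0.40 in S. Of the 103 lower, 58 and 65 were negative, with medians of -0.04 and -0.05, against -0.44 in S. All 430 were selected by their change in S, which by itself enlarges the S medians. The gaps between these medians are therefore no measure of a difference between strains. Over all 15473 probe sets 8295 had the same sign in S and ET3x1 and 8680 in S and ET3x2.

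The cholesterol list had a positive median in all 3 strains. In ET3x1 7 of the 17 genes rose and 1, Mvd, fell, and in ET3x2 Idi1 and Sqle rose, with medians of 0.23 and 0.17, against 0.25 in S. Sqle changed by 0.64 ± 0.10 in S, by 0.83 ± 0.11 in ET3x1 and by 0.54 ± 0.11 in ET3x2, with calls in each. The brighter Idi1 probe set gave 0.87 ± 0.15 in S, 0.80 ± 0.16 in ET3x1 and 0.77 ± 0.16 in ET3x2. No gene of the list differed between the salt responses of S and ET3x1 (limma, 0 of 17). For Sqle that difference, S minus ET3x1, was -0.18 ± 0.14 (limma adjusted p = 0.475), and for Insig1 it was 0.53 ± 0.19 (limma adjusted p = 0.101). Glud1, Lcn2 and Ndrg1 were also called in both congenic strains. Spp1 rose in ET3x1 (0.78 ± 0.13) and was at 0.45 ± 0.13 in ET3x2 (limma adjusted p = 0.148).

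Other genes ran against each other. The salt response of S exceeded that of ET3x1 at 631 probe sets and fell short of it at 219, together 850 calls (5.49%, as 4.08% and 1.42%). Evi5 had the largest difference among named genes: 1.30 ± 0.20 in S and -1.75 ± 0.23 in ET3x1, hence 3.05 ± 0.30 (limma adjusted p = 7.30e-07). For Tns1 the values were 0.92 ± 0.13 and -1.30 ± 0.15 (difference 2.21 ± 0.20), for Cmip 0.82 ± 0.14 and -0.92 ± 0.15, for Cpd 0.79 ± 0.18 and -1.03 ± 0.20, and for Mmp14 0.92 ± 0.16 and -0.79 ± 0.17. Ccdc6, a coiled-coil protein, was not called in S (0.51 ± 0.18) and fell in ET3x1 (-1.39 ± 0.20), a difference of 1.91 ± 0.27. Among decreases in S, Vcl had -0.81 ± 0.22 in S and 1.02 ± 0.25 in ET3x1 (difference -1.83 ± 0.34), Sppl2a -0.64 ± 0.15 and 0.83 ± 0.17, Wtap -0.77 ± 0.19 and 0.65 ± 0.21, and Kpna1 -1.06 ± 0.25 and 0.54 ± 0.28. Peli2, a ubiquitin ligase of Toll-like receptor signalling, had -0.54 ± 0.18 and 1.04 ± 0.20 (difference -1.58 ± 0.27), and Paip1 -0.72 ± 0.20 and 0.62 ± 0.22. From the lists, Nfkbia (0.43 ± 0.10 in S and -0.28 ± 0.11 in ET3x1) and Col1a1 (0.46 ± 0.13 and -0.28 ± 0.14) were among the called differences.

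An RNA quality measure moved with this contrast. For Gapdh on RAE230A the probe set at the 3' end exceeded that at the 5' end, on the log2 scale, by 0.812 ± 0.0526 and 0.827 ± 0.0723 in S rats on high and low salt (SD, n = 5 each), and 0.594 ± 0.0265 and 0.877 ± 0.0994 in ET3x1 rats (SD, n = 4 each). With this ratio as a covariate 27 probe sets in place of 850 were called for the difference between the strains, and 376 in place of 430 for the salt response of S. With the beta-actin ratio as the covariate the counts were 932 and 174. In ET3x1 rats the Gapdh values did not overlap, with 0.556 to 0.612 on high salt and 0.768 to 0.986 on low salt. In ET3x2 rats they were 0.747 ± 0.107 on high salt and 0.948 ± 0.0665 on low salt (SD, n = 4 each). The part of this measure in the salt calls within either congenic strain was not tested.

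Against ET3x2 the salt response of S differed at 3 probe sets (0.0194%, as 0.0129% higher and 0.00646% lower), while 1390 had an unadjusted p below 0.05. Tns1 (1.14, limma adjusted p = 0.0493) and Igf1r, the receptor of insulin-like growth factor 1 (0.77, limma adjusted p = 0.0497), were higher in S, and Myh1, a skeletal muscle myosin, lower (-0.74, limma adjusted p = 0.0493). Igf1r had 8.56, 8.44, 8.78, 8.48 and 8.40 in high-salt S rats and 7.83, 7.93, 8.19, 7.84 and 8.15 in low-salt S rats (0.55 ± 0.10 in S, -0.22 ± 0.11 in ET3x2). Its other probe set gave 0.07 in S. With array medians centred, in a fit of S and ET3x2 alone, and with any of 7 S rats left out (all but high-salt rat 1 and low-salt rats 3 and 5), 0 probe sets were called, and 20 were called without low-salt rat 3.

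**Figure D5:**
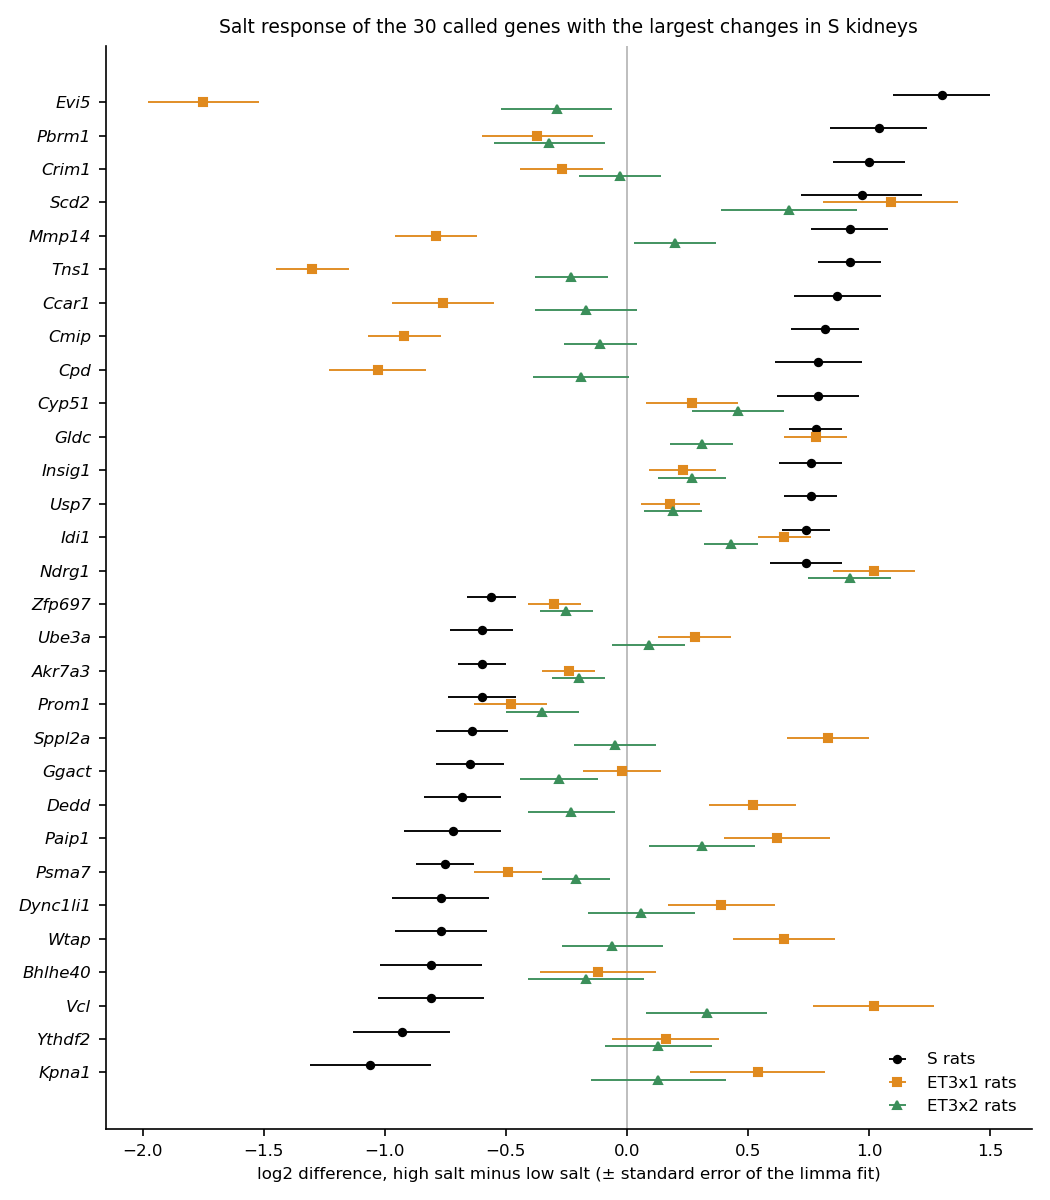
Log2 difference, high salt minus low salt, ± the standard error of the limma fit, for the 30 called genes with the largest changes in S rats (black circles), with ET3x1 (orange squares) and ET3x2 (green triangles) beside them; the fit held 5 rats per diet in S and 4 in each congenic strain. Scd2, Gldc, Idi1 and Ndrg1 are positive in all 3 strains, whereas Evi5 and Tns1 reach -1.75 and -1.30 in ET3x1.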

How the data were processed

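Biotin-labelled cRNA of the left kidney of 26 rats was hybridised to RAE230A and RAE230B chips, per the labels. The deposited values are log2 levels that the authors had normalized, as near-equal array medians show (7.48 to 7.52 and 6.34 to 6.40 in S rats). For their summary and scaling, the method is not given in the sources used here. Tests covered 7933 probe sets of RAE230A and 7540 of RAE230B, those at least as bright on average as the median of the chip (7.51 and 6.38), without 57 controls on either chip and without the RAE230B copies of 100 maintenance probe sets. Linear models were fitted to either chip on its own (limma 3.58.1, R 4.3.3), with 6 groups as coefficients, an intensity trend and 20 residual degrees of freedom. Tests were two-sided, and Benjamini-Hochberg adjustment ran over both chips. For arrays, their number limits the precision, and p-values measure the spread between rats.

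Symbols came from the platform annotation, with 11110 tested probe sets on 1 symbol, 274 on several and 4089 on none. The text names the 15 called genes that changed most in each direction, by the probe set of smallest p, and Sgk1 and Agt whatever their value. It also names up to 6 called members of each list by the brightest probe set, or else the 2 with the largest statistic, and 6 genes each way for each difference between strains. Exceptions are marked. Members and the 28 gene and 14 marker lists were chosen with earlier results of these data known. On simulated data for the S comparison with 15473 probe sets the fit recovered 20% of log2 changes of 0.25, 88% of 0.5, 98% of 0.75 and 100% of 1, with 11 false among 164 calls (6.71%). The simulated noise was drawn for each probe set on its own, without differences between rats that many probe sets share. These percentages therefore check the fit and give no rate of recovery or of false calls for the measured arrays.

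Alternatives were quantile normalization, centred medians, no filter, a filter that kept the brightest 25%, no trend, adjustment within each chip, array weights, covariates for the Gapdh and beta-actin 3' to 5' ratios and for bioD minus bioC, the compared strains alone, and leaving out each S rat. Leaving out high-salt rats 1 and 2 or low-salt rats 1 and 4 was chosen after seeing the data. Array quality was tested by exact permutation in scipy 1.17.1.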

Additional observations from a re-analysis of the deposited data

Results flagged for a closer look

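Single rats stood apart from the other 4 of their diet in 13 of 190 sets of 5 values, by Dixon's test, and chance flags about 1 set in 20. Low-salt rat 4 was the one apart for Kpna1 (10.77), Ythdf2 (11.34), Vcl (10.83), Dync1li1 (12.23), Paip1 (9.33) and Ggact (9.26). Among high-salt rats, rat 1 was apart for Gldc (9.51), rat 2 for Sdhb (12.38), rat 3 for Cpd (9.19) and Sppl2a (6.48), and rat 5 for Gsta1 (11.84) and Ccdc6 (10.24). Low-salt rat 5 had the widest interquartile range on RAE230B (1.89).

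The salt response differed between S and ET3x1 by limma's test of the difference for 27 of the named genes. Part of these genes were named because of this difference and others for a large change in S, so their number is no independent support. Over all tested probe sets 850 (5.49%) were called for the difference, and 27 probe sets with the Gapdh ratio as a covariate. Positive differences, S minus ET3x1, were found for Evi5 (3.05), Tns1 (2.21), Ccdc6 (1.91), Cpd (1.82), Cmip (1.74), Mmp14 (1.70), Ccar1 (1.63), Pbrm1 (1.41), Crim1 (1.28), Igf1r (0.98), Col1a1 (0.74), Nfkbia (0.71), Snrnp70 (0.64), Usp7 (0.57), Prdx5 (0.55), Slc34a1 (0.35) and Akt1 (0.33). Negative ones were found for Vcl (-1.83), Kpna1 (-1.60), Peli2 (-1.58), Sppl2a (-1.47), Wtap (-1.42), Paip1 (-1.34), Dedd (-1.21), Dync1li1 (-1.16), Ythdf2 (-1.09) and Ube3a (-0.87). Between S and ET3x2 the salt response differed for Tns1 (1.14), Igf1r (0.77) and Myh1 (-0.74).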

How the results depend on the processing

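Calls of the S comparison, 430 in all (327 higher and 103 lower), came to 1091 (837 and 254) with array weights, 174 (126 and 48) with the beta-actin ratio and 137 (100 and 37) with bioD minus bioC as a covariate, 67 (49 and 18) without high-salt rats 1 and 2, 58 (37 and 21) without low-salt rats 1 and 4, and 77 (68 and 9) with S rats alone. Lower calls were 205 with quantile normalization. Leaving out 1 rat gave 145 to 1000 calls, 111 to 839 higher and 32 to 163 lower. The difference from ET3x1 had 850 calls, and 508 among the brightest 25% of probe sets, 2388 with array weights, 27 with the Gapdh ratio, 58 with bioD minus bioC, 358 without high-salt rats 1 and 2, 414 without low-salt rats 1 and 4, and 549 (without high-salt rat 2) to 1257 (without low-salt rat 3) with 1 rat left out, 566 without low-salt rat 1. That from ET3x2 had 3 calls, and 1 with quantile normalization, 8 with no filter, 416 with array weights, 10 with the beta-actin ratio, 0 with centred medians, the Gapdh ratio, bioD minus bioC, without low-salt rats 1 and 4 or with S and ET3x2 alone, and 0 to 20 with 1 rat left out. Of the named probe sets called in S, no value changed sign under any alternative run. Of 68 named probe sets called in S, 61 were called with quantile normalization, 43 with beta-actin, 36 with bioD minus bioC and 26 with S rats alone. Of 66 of them followed through all alternatives, 15 were called under each one that gave a value. The cause of these shifts was not tested. No paired analysis was possible because the labels give the animals of different groups no shared numbers. Signal over background could not be used as a limit, since the values carry no detection calls.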
